A study of Drosophila melanogaster with 2 samples.

Results

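The Hox complexes of chromosome arm 3R were the regions described here. They were 2 in number and were set by position, in Release 5 coordinates: the Antennapedia complex at chr3R:2480001-2830000 (350 kb) and the bithorax complex at chr3R:12480001-12800000 (320 kb). The Antennapedia complex held 1166 and the bithorax complex 1066 bins of 300 bp, 2232 of the 384451 bins counted over the euchromatic genome. Each complex was set against the 500 kb on both of its sides. H3K9me2 was measured by ChIP-seq in homogenized third-instar larvae, in 1 library of the mutant EHMTDD1 (EHMT-KO in the labels) and 1 of the control EHMT+ (wild type in the labels). EHMTDD1 came from an imprecise excision of the P-element KG01242 and lacks DNA downstream of the insertion site with the start codon of EHMT. EHMT+ came from a precise excision of the same element in the same genetic background. Each genotype was 1 line and 1 library, so differences between them rest on no replicates and are given without p-values.

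EHMT, the fly relative of mammalian G9a, adds methyl groups to lysine 9 of histone H3, and the dimethylated form (H3K9me2) marks condensed, repressive chromatin. Hox genes encode homeodomain transcription factors that give segments their identity along the head-to-tail axis. Outside the segments where they act, they are kept silent by Polycomb proteins, whose own mark is methylation of another residue, lysine 27 of histone H3. Homogenized larvae mix tissues in which a Hox gene is active with tissues in which it is silent, and these cannot be told apart in the tags. In polytene salivary gland cells the bithorax complex is known as a region that is replicated less than most of euchromatin. No input library was used here, so the number of DNA copies and the recovery of a sequence cannot be told apart from the level of the mark.

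The order of the genes was taken from a Release 6 gene table, and no gene was placed on the Release 5 positions below. From lab to Antp the table listed 43 genes, 19 of them protein-coding. The Hox genes among them are lab, pb, Dfd, Scr and Antp, which act in the head and thorax. The complex also holds zen and zen2, relatives of a Hox gene that no longer act as one (zen patterns the dorsal side of the embryo), bcd, which patterns the head end of the embryo, the pair-rule gene ftz and Ama, which encodes a secreted cell adhesion protein. A row of cuticle genes (Edg84A and the Ccp84A genes) lies between lab and pb. From Ubx to Abd-B the table listed 16 genes, 6 of them protein-coding. Ubx specifies the posterior thorax and the first abdominal segment, abd-A the middle of the abdomen and Abd-B its end. Between them lie long regulatory stretches with the non-coding genes lncRNA:bxd and lncRNA:iab8 and the microRNA genes mir-iab-4 and mir-iab-8.

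Both complexes had fewer H3K9me2 tags than their surroundings in both libraries, and the bithorax complex had the fewest. Densities are tags per kb, each 300-bp tag counted once by its midpoint. Those of whole complexes, flanks, windows of 320 or 350 kb and 3R are over bins with a tag in either library, and those of shorter windows and steps are over their full length. Intervals are 95% intervals, and those of densities and of ratios of counts cover counting error only. The bithorax complex had 30.4 tags per kb in EHMTDD1 (29.8–31.0, from 9573 tags) and 26.9 in EHMT+ (26.3–27.5, from 8464 tags). Its flanks had 50.8 tags per kb in EHMTDD1 and 50.2 in EHMT+. The complex was therefore at 0.598 of its flanks in EHMTDD1 (0.585–0.612) and at 0.536 in EHMT+ (0.524–0.549). The Antennapedia complex had 37.8 tags per kb in EHMTDD1 (37.1–38.4, from 13145 tags) and 36.9 in EHMT+ (36.3–37.6, from 12858 tags). Its flanks had 49.0 tags per kb in EHMTDD1 and 50.4 in EHMT+, and the complex was at 0.771 of them in EHMTDD1 (0.756–0.786) and at 0.733 in EHMT+ (0.719–0.747). The bithorax complex was at 0.805 of the Antennapedia complex in EHMTDD1 (0.784–0.827) and at 0.728 in EHMT+ (0.708–0.748). For the whole of 3R outside the pericentric 1 Mb the density was 51.9 tags per kb in EHMTDD1 and 50.5 in EHMT+.

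**Figure D1:**
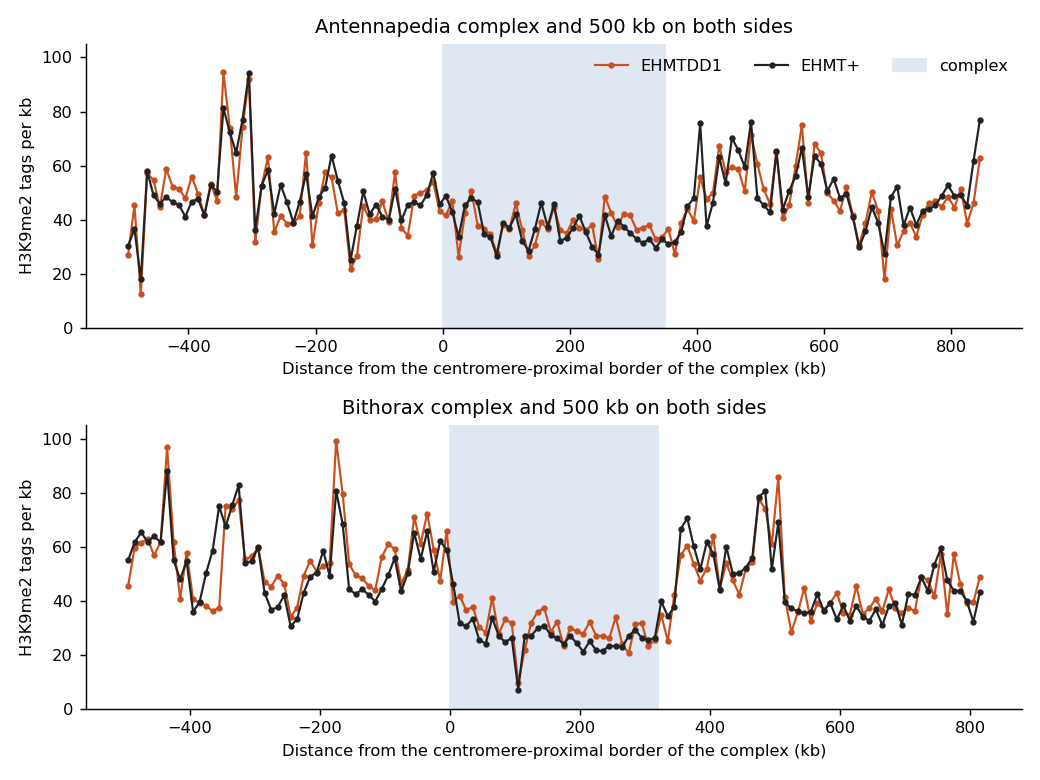
H3K9me2 tags per kb in 10-kb windows against the distance from the centromere-proximal border of each complex in kb, with the complex shaded, EHMTDD1 in orange and EHMT+ in black. All 32 windows of the bithorax complex lie below the median of its flank windows in both libraries, and the window at 100 to 110 kb holds the 17 bins without a tag.

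The flanks on the sides of the bithorax complex differed from each other. Before its proximal border the density was 55.7 tags per kb in EHMTDD1 and 54.1 in EHMT+, and beyond its distal border it was 45.9 in EHMTDD1 and 46.2 in EHMT+. Set against the lower, distal flank alone, the complex stood at 0.662 in EHMTDD1 and at 0.582 in EHMT+. Against the proximal flank it stood at 0.546 in EHMTDD1 and at 0.497 in EHMT+. The sides of the Antennapedia complex were closer, with 49.7 tags per kb in EHMTDD1 and 50.7 in EHMT+ on the proximal side, and 48.3 in EHMTDD1 and 50.1 in EHMT+ on the distal side.

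All 32 windows of 10 kb in the bithorax complex lay below the median of the 100 flank windows, both in EHMTDD1 and in EHMT+. Of the 50 windows of the distal flank, 34 in EHMTDD1 and 33 in EHMT+ lay below it too, and of the 50 of the proximal flank 16 and 17. The windows of the complex ranged from 9.70 to 41.9 tags per kb in EHMTDD1, around a median of 30.1, and from 7.10 to 46.2 in EHMT+, around a median of 26.2. Per full length, the lowest value in both libraries came from chr3R:12580001-12590000, in which 17 of 32 bins had no tag in either library and lowered the density. These 17 bins formed 1 run of 5.1 kb, and whether reads can be placed uniquely there was not tested. The next lowest windows in EHMT+ were chr3R:12680001-12690000, with 27.8 tags per kb in EHMTDD1 and 21.2 in EHMT+, and chr3R:12710001-12720000, with 27.0 in EHMTDD1 and 21.4 in EHMT+. The highest in EHMT+ was the first window, chr3R:12480001-12490000, at 39.7 tags per kb in EHMTDD1 and 46.2 in EHMT+. After it came chr3R:12540001-12550000 (41.1 in EHMTDD1 and 33.6 in EHMT+) and chr3R:12510001-12520000 (37.8 in EHMTDD1 and 33.3 in EHMT+), so that the highest windows lay in the first 70 kb of the complex.

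In the Antennapedia complex, 32 of 35 windows in EHMTDD1 and 33 of 35 in EHMT+ lay below the median of the flank windows. They ranged from 25.3 to 50.6 tags per kb in EHMTDD1 and from 26.5 to 48.7 in EHMT+. The 3 highest in EHMT+ lay in the first 60 kb. Of these, chr3R:2480001-2490000 had 41.5 tags per kb in EHMTDD1 and 48.7 in EHMT+, and chr3R:2520001-2530000 had 50.6 in EHMTDD1 and 48.0 in EHMT+. The window after it, chr3R:2530001-2540000, had 37.7 in EHMTDD1 and 46.4 in EHMT+. Nearly as high in EHMT+ was chr3R:2630001-2640000, which began 150 kb from the border, with 39.1 in EHMTDD1 and 46.2 in EHMT+. In EHMTDD1 the second highest window was chr3R:2730001-2740000, 250 kb from the border, with 48.5 in EHMTDD1 and 41.6 in EHMT+. The lowest in EHMT+ were spread along the complex. They were chr3R:2560001-2570000 (27.6 in EHMTDD1 and 26.5 in EHMT+), chr3R:2720001-2730000 (25.3 in EHMTDD1 and 27.0 in EHMT+) and chr3R:2610001-2620000 (26.5 in EHMTDD1 and 28.5 in EHMT+).

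The proximal border of the bithorax complex was the steepest of the 4 borders in EHMTDD1 between neighbouring 5-kb steps. The last 5 kb before it held 87.4 tags per kb in EHMTDD1 and 65.6 in EHMT+, and the first 5 kb inside it held 34.8 in EHMTDD1 and 46.8 in EHMT+. The flank itself was uneven: the 5 kb that began 20 kb before the border held 31.0 in EHMTDD1 and 53.4 in EHMT+. In EHMT+ the step at the border was smaller, and the density reached 28.0 tags per kb at 15 to 20 kb inside the border, where EHMTDD1 had 33.2. At the distal border the level rose less and not evenly. The last 5 kb inside it held 21.4 tags per kb in EHMTDD1 and 29.6 in EHMT+, and the first 5 kb outside held 31.2 in EHMTDD1 and 36.4 in EHMT+. The next 5 kb held 38.4 in EHMTDD1 and 43.2 in EHMT+. The 5 kb that began 15 kb beyond the border held 17.2 tags per kb in EHMTDD1 and 24.4 in EHMT+, and the 5 kb that began 30 kb beyond it held 53.8 in EHMTDD1 and 69.6 in EHMT+. The low level of the Antennapedia complex also ran on past its distal border, with 38.8 tags per kb in EHMTDD1 and 34.8 in EHMT+ in the 5 kb from 25 kb beyond it and 46.2 in EHMTDD1 and 47.0 in EHMT+ in the 5 kb from 30 kb beyond it. At its proximal border, the last 5 kb of flank (38.2 in EHMTDD1 and 38.0 in EHMT+) and the first 5 kb of the complex (39.4 in EHMTDD1 and 38.8 in EHMT+) were alike in level.

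Long stretches as low as the bithorax complex were rare in these libraries. The 5 arms without their pericentric 1 Mb were divided into 351 other windows of 320 kb. None of these was lower than the bithorax complex in EHMT+, where they had a median of 52.3 tags per kb and a minimum of 28.2. In EHMTDD1, 2 of the 351 were lower. Both lay on 2L: chr2L:16960001-17280000 had 25.0 tags per kb in EHMTDD1 and 28.2 in EHMT+, and chr2L:17600001-17920000 had 29.5 in EHMTDD1 and 32.5 in EHMT+. In both of these the mutant library was the lower one, whereas in the bithorax complex it was the higher one. With the windows moved to a grid midway between these, none of 350 was below the bithorax complex in EHMTDD1. Of 321 windows of 350 kb, 6 were lower than the Antennapedia complex in EHMTDD1 and 5 in EHMT+. On 3R alone, with 74 such windows, 1 was lower in EHMTDD1 and 2 in EHMT+. The one that was lower in both libraries, chr3R:12550001-12900000, lay mostly inside the bithorax complex, because each complex was left out only of the windows set against itself.

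**Figure D2:**
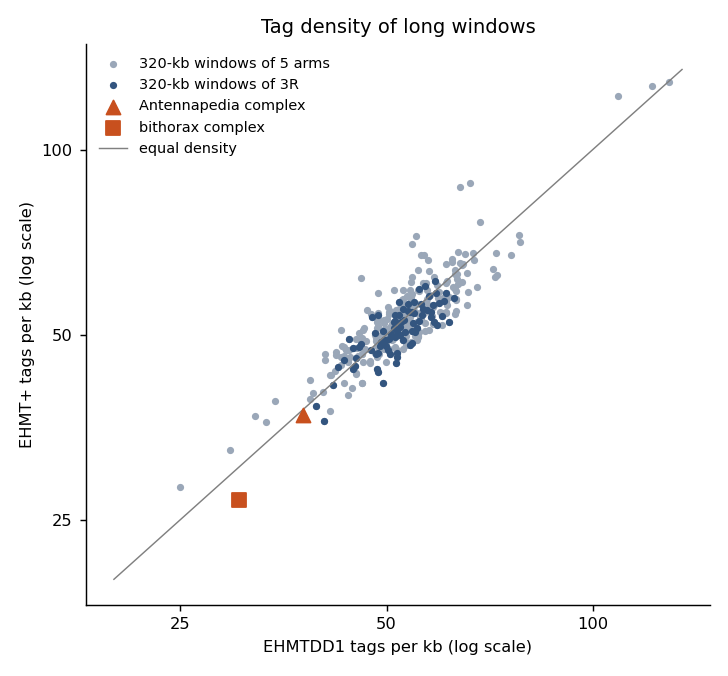
Tags per kb in EHMTDD1 (horizontal axis) and EHMT+ (vertical axis), both on log scales, for 351 windows of 320 kb on 5 arms, those of 3R in dark blue, with the Antennapedia complex (triangle) and the bithorax complex (square). The bithorax complex, at 30.4 in EHMTDD1 and 26.9 in EHMT+, lies below the line of equal density and below every window on the vertical axis.

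The second measure was evenness, the spread of tags per bin around the mean. In whole bins counted by overlap, the bithorax complex had a median of 18 tags in EHMTDD1 and 15 in EHMT+, against 28 in its flanks in both libraries. The middle 90% of its bins ran from 3 to 33 tags in EHMTDD1 and from 7 to 26 in EHMT+. The Antennapedia complex had a median of 22 tags in EHMTDD1 and 21 in EHMT+, against 27 in EHMTDD1 and 28 in EHMT+ in its flanks. In both complexes the EHMTDD1 bins were spread more widely than the EHMT+ bins, as they were in the flanks. Bins under 10 tags made up 19.2% of the bithorax complex in EHMTDD1 and 11.7% in EHMT+, against 9.42% of its flanks in EHMTDD1 and 1.44% in EHMT+. They made up 14.2% of the Antennapedia complex in EHMTDD1 and 4.55% in EHMT+, against 12.5% of its flanks in EHMTDD1 and 3.51% in EHMT+. These shares count bins without a tag in either library, 6 in the Antennapedia complex and 73 in its flanks. Of bins with a tag in either library, 47 of 1160 in that complex and 44 of 3259 in its flanks had under 10 EHMT+ tags. By this count the share in EHMT+ was higher in the complex.

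**Figure D3:**
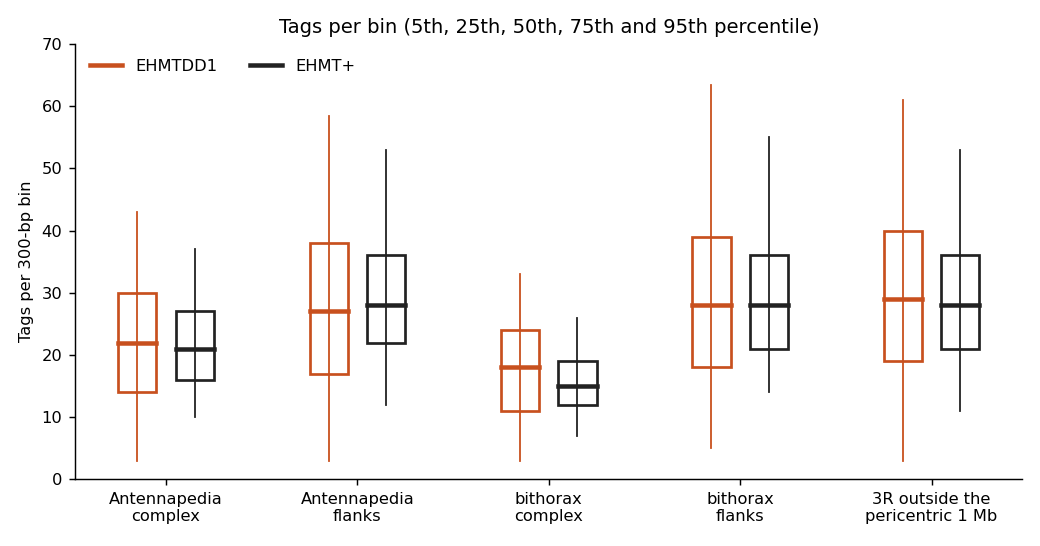
Tags per 300-bp bin in the complexes, their flanks and 3R, EHMTDD1 in orange and EHMT+ in black: the line spans the 5th to the 95th percentile, the box the 25th to the 75th, and the thick bar is the median. The boxes of EHMTDD1 are taller than those of EHMT+ in every region, and the bithorax complex has medians of 18 in EHMTDD1 and 15 in EHMT+.

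The coefficient of variation (SD over mean) in EHMT+ was 0.387 in the Antennapedia complex and 0.445 in its flanks, and 0.397 in the bithorax complex and 0.425 in its flanks. Fewer tags alone raise this coefficient, so the part that a Poisson count of the same mean has was taken out. What remained in EHMT+ was 0.323 in the Antennapedia complex and 0.405 in its flanks, and 0.308 in the bithorax complex and 0.384 in its flanks. In EHMTDD1 it was 0.501 in the Antennapedia complex and 0.599 in its flanks, and 0.444 in the bithorax complex and 0.562 in its flanks. Both complexes were thus more even than their flanks by this measure in both libraries. The flanks are longer than the complexes and pool sides of different level, but each flank alone was also less even than its complex. These values include bins without a tag in either library, 6 in the Antennapedia complex and 73 in its flanks. Without such bins the Antennapedia complex was at 0.314 in EHMT+ and 0.494 in EHMTDD1, and its flanks at 0.372 and 0.573. The bithorax complex was then at 0.278 in EHMT+ and 0.422 in EHMTDD1, and its flanks at 0.381 and 0.560. By this value, 17 of 74 windows of 350 kb on 3R in EHMT+ and 21 in EHMTDD1 were more even than the Antennapedia complex. Over the 5 arms, 36 of 321 in EHMT+ and 62 in EHMTDD1 were. For the bithorax complex, 5 of 82 windows of 320 kb on 3R in EHMT+ and 4 in EHMTDD1 were. Over the 5 arms, 15 of 351 in EHMT+ and 12 in EHMTDD1 were. Among stretches of its own length, the bithorax complex was thus nearer the even end than the Antennapedia complex. The raw ratio for the bithorax complex, 0.934 of its flanks in EHMT+, became 1.03 when tags were counted by midpoint, which leaves fewer tags per bin. With midpoints and the Poisson part taken out, the values in EHMT+ were 0.356 in the bithorax complex and 0.415 in its flanks. At 10 kb, where counting noise is small, the coefficient was 0.158 in EHMTDD1 and 0.164 in EHMT+ for the Antennapedia complex, against 0.279 in EHMTDD1 and 0.252 in EHMT+ for its flanks. For the bithorax complex it was 0.219 in EHMTDD1 and 0.220 in EHMT+, against 0.276 in EHMTDD1 and 0.265 in EHMT+ for its flanks. The 10-kb values include stretches without a tag.

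The comparison of the genotypes used the log2 ratio of EHMT+ to EHMTDD1 after adding 1 to both counts, so that a positive value means fewer tags in the mutant. In the bithorax complex the mutant had slightly more tags. Its total in EHMTDD1 was 1.13 times that in EHMT+ (1.10–1.16), a log2 ratio of −0.18, while the flanks had 1.01 times (1.00–1.03). Relative to the flanks, the EHMT+ to EHMTDD1 ratio of the complex was 0.896 (0.868–0.925). The median bin was at −0.13 in the complex (−0.18 to −0.09) and at −0.05 in the flanks. That interval treats the bins as independent, though neighbouring bins share tags, so it is too narrow. In the complex 589 bins were below 0 against 403 above. Bins below 0 were also the more frequent in the flanks (1722 against 1513) and on 3R (44802 against 39678). The Antennapedia complex had nearly equal totals, 1.02 times as many tags in EHMTDD1 as in EHMT+ (0.998–1.05), and a median bin of 0.00. Relative to its flanks, where EHMT+ had more tags, its EHMT+ to EHMTDD1 ratio was 0.951 (0.925–0.977).

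The ratio varied along the complexes and the flanks. In steps of 50 kb, the bithorax complex had log2 ratios of −0.15, −0.25, −0.17, −0.15, −0.32 and −0.14 from its proximal border on, and 0.09 in its last 20 kb. The counting interval lay below 0 in the first 6 of these. The 20 steps of its flanks ran from −0.19 to 0.44. The 5 flank steps between 300 kb and 50 kb before the proximal border were all below 0, at −0.18, −0.14, −0.17, −0.19 and −0.13. The value of −0.32, at chr3R:12680001-12730000, was the lowest of the 27 steps in and around the complex. Over the 351 windows of 320 kb, 13 had a lower log2 ratio than the −0.18 of the bithorax complex, 4 of them among the 82 windows of 3R. Of the 321 windows of 350 kb, 126 were lower than the −0.03 of the Antennapedia complex. In the Antennapedia complex the first 5 steps lay between −0.04 and 0.07, and the last 2 were at −0.18 and −0.16, inside the flank range of −0.17 to 0.28 but for the first of them.

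**Figure D4:**
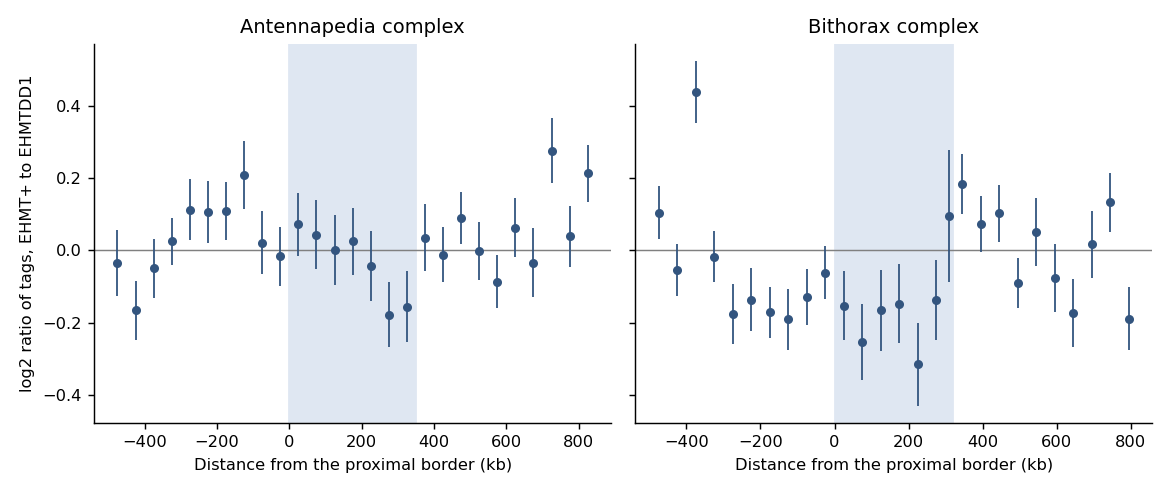
Log2 ratio of tags in EHMT+ to EHMTDD1 in steps of 50 kb (the last step of the bithorax complex is 20 kb) against the distance from the proximal border in kb, with each complex shaded; bars are 95% counting intervals and values below 0 have more tags in EHMTDD1. In the bithorax complex 6 of 7 steps lie below 0, and the lowest is −0.32.

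Single windows differed more. In the bithorax complex 26 of 32 windows of 10 kb had more tags in EHMTDD1, against 60 of 100 in its flanks, and the interval of the EHMT+ to EHMTDD1 ratio lay below 1 in 14 and above 1 in 3. In its 100 flank windows it lay below 1 in 22 and above 1 in 16, and in the 35 windows of the Antennapedia complex it lay below 1 in 5 and above 1 in 5. The lowest log2 ratio of the bithorax complex was −0.55, at chr3R:12730001-12740000, with 339 tags in EHMTDD1 and 232 in EHMT+. It was followed by the window with the untagged run (97 tags in EHMTDD1 and 71 in EHMT+, −0.44) and by chr3R:12560001-12570000 (332 in EHMTDD1 and 246 in EHMT+, −0.43). The 3 highest were chr3R:12750001-12760000, with 206 tags in EHMTDD1 and 270 in EHMT+ (0.39), chr3R:12590001-12600000, with 218 in EHMTDD1 and 270 in EHMT+ (0.31), and the first window of the complex (0.22). The lowest and one of the highest thus stood only 10 kb apart.

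In the Antennapedia complex the highest log2 ratio was 0.36, at chr3R:2500001-2510000, with 262 tags in EHMTDD1 and 336 in EHMT+. The next were chr3R:2530001-2540000 at 0.30 (377 in EHMTDD1 and 464 in EHMT+) and chr3R:2620001-2630000 at 0.26 (305 in EHMTDD1 and 365 in EHMT+). The lowest were chr3R:2710001-2720000 at −0.34 (379 in EHMTDD1 and 299 in EHMT+), chr3R:2740001-2750000 at −0.33 (425 in EHMTDD1 and 339 in EHMT+) and chr3R:2790001-2800000 at −0.25 (370 in EHMTDD1 and 312 in EHMT+). These 3 highest windows lay in the first 150 kb and these 3 lowest in the last 120 kb, but windows of both signs occurred in both stretches.

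Loss of methylation bins (LOMBs) were bins with a log2 ratio more than 2 SD above the mean of all euchromatic bins, which set an upper limit of 1.90, or 3.74-fold. The term is the study's, but the bins and limits were set anew here and need not be those of the study. Of all euchromatic bins, 5.17% passed it. The bithorax complex had 32 LOMBs among 1066 bins, 3.00% (Wilson 95% interval 2.13–4.21), and its flanks had 171, 5.13% (4.43–5.93). The Antennapedia complex had 58 LOMBs among 1166 bins, 4.97% (3.87–6.38), and its flanks had 177, 5.31% (4.60–6.13). The Antennapedia complex was thus near its flanks and the background, and the bithorax complex was below both. On 3R as a whole the share was 4.04%. Among the 351 windows of 320 kb, 84 had a lower share than the bithorax complex. These intervals are too narrow, because 1 tag can fall in neighbouring bins and the bins are treated as independent.

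**Figure D5:**
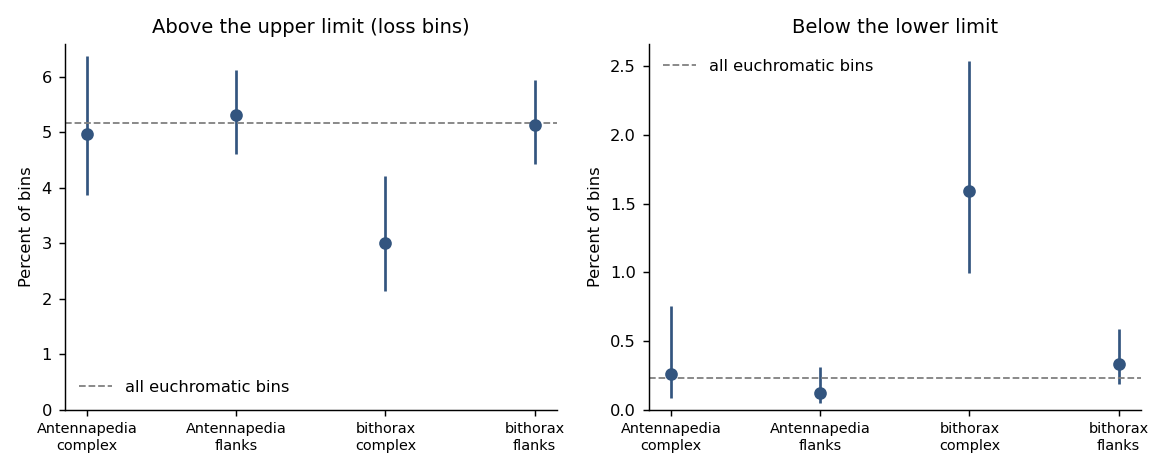
Percent of 300-bp bins above the upper limit (left) and below the lower limit (right) in each complex and its flanks, with 95% Wilson intervals and the share of all euchromatic bins as a dashed line. The bithorax complex is at 3.00% on the left and at 1.59% on the right, against 5.13% and 0.330% in its flanks.

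The share of LOMBs also varied with the number of EHMT+ tags in a bin, which is itself part of the ratio, so the shares by class are a description only. Among bins with 10 to 19 EHMT+ tags, the bithorax complex had 25 LOMBs of 689 (3.63%, 2.47–5.30), its flanks 32 of 588 (5.44%, 3.88–7.58), and all euchromatic bins 7.19%. Among bins with 20 to 29 EHMT+ tags, it had 4 of 227 (1.76%, 0.687–4.44), its flanks 69 of 1227 (5.62%, 4.47–7.06), and all euchromatic bins 4.92%. The Antennapedia complex had 24 of 417 (5.76%) in the lower of these classes and 23 of 486 (4.73%) in the higher, against 34 of 478 (7.11%) and 55 of 1223 (4.50%) in its flanks. Where bins with fewer than 20 tags in both libraries together were left out, the bithorax complex had 8 LOMBs of 932 (0.858%) and its flanks 163 of 3258. Before this step, LOMBs of the complex had medians of 2 tags in EHMTDD1 and 14 in EHMT+. Those of its flanks had medians of 3 in EHMTDD1 and 28 in EHMT+. The minimum of 20 lies above the EHMT+ median of LOMBs in the complex and below that of LOMBs in its flanks. With the minimum, the upper limit was also set anew from the bins that were kept. Why the number fell was not tested, and the drop is given as a description only.

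LOMBs of the Antennapedia complex came in longer runs than those of the bithorax complex. The Antennapedia complex had 33 runs, 13 of them of at least 2 bins, and the longest had 8. That run, chr3R:2530801-2533200, held 6 tags in EHMTDD1 and 104 in EHMT+, so that EHMT+ had 17.3 times as many (7.70–48.3, an interval that takes no account of the choice of the longest run). Every bin of it had at most 4 tags in EHMTDD1 and at least 22 in EHMT+. Runs of 4 bins lay at chr3R:2632501-2633700, with 2 tags in EHMTDD1 and 40 in EHMT+, and at chr3R:2722501-2723700, with 0 in EHMTDD1 and 31 in EHMT+. Runs of 3 bins lay at chr3R:2593201-2594100, with 1 tag in EHMTDD1 and 30 in EHMT+, and at chr3R:2634301-2635200, with 3 in EHMTDD1 and 30 in EHMT+. Low counts in the mutant and high counts in the control are what made these bins LOMBs. The run at 2634301 began 600 bp after the end of the one at 2632501, in the 50 kb from 2630001 that held 14 LOMBs. The 100 kb at the distal end of the complex held only 4. Long runs were not particular to this complex. Its proximal flank had 4 runs of at least 4 bins and its distal flank 3, against 3 in the complex. The longest run had 6 bins in the proximal and 7 in the distal flank.

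The bithorax complex had 24 runs of LOMBs, 18 of them single bins and none longer than 3. The longest lay close together: chr3R:12752101-12753000 had 1 tag in EHMTDD1 and 25 in EHMT+, and chr3R:12750301-12751200 had 0 in EHMTDD1 and 15 in EHMT+. Both were in the 10-kb window with the highest log2 ratio, which held 7 of the 32 LOMBs. There were 4 runs of 2 bins, and those with the most EHMT+ tags were chr3R:12633901-12634500 (3 tags in EHMTDD1 and 22 in EHMT+), chr3R:12624901-12625500 (3 in EHMTDD1 and 20 in EHMT+) and chr3R:12796801-12797400 (0 in EHMTDD1 and 10 in EHMT+). The first 150 kb of the complex held 4 LOMBs and the remaining 170 kb held 28. Neither flank of the bithorax complex was without longer runs, with 3 runs of at least 4 bins on each side.

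Bins below the lower limit of −1.56, with at least 2.96-fold more tags in EHMTDD1, made up 0.234% of all euchromatic bins. The bithorax complex had 17 (1.59%, 1.00–2.54), its flanks 11 (0.330%, 0.184–0.590), and the Antennapedia complex 3 (0.257%) with 4 in its flanks (0.120%). None of the 351 windows of 320 kb had a higher share than the bithorax complex, and 1 had the same. Of the 17 bins, 15 had fewer than 10 tags in EHMT+, whose count is the numerator of the ratio. Among bins with a tag in either library that were that low in EHMT+, 15 of 108 (13.9%) in the complex lay below the limit. In its flanks 6 of 41 (14.6%) did, and among all such euchromatic bins 7.95%. With 10 to 19 EHMT+ tags, 2 of 689 (0.290%) in the complex and 5 of 588 (0.850%) in its flanks did, against 0.548% of all euchromatic bins. Within these classes the share of the complex was not above that of its flanks. The intervals in the lower class were wide, 8.60–21.7% in the complex and 6.88–28.4% in its flanks. Because the classes are cut on the EHMT+ count, these shares are a description only.

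The longest of these runs in the bithorax complex was chr3R:12705901-12706800, 3 bins with 35 tags in EHMTDD1 and 5 in EHMT+, 7.00 times as many in the mutant (2.73–22.9). The next was chr3R:12641701-12642300, 2 bins with 39 tags in EHMTDD1 and 11 in EHMT+ (3.55 times, 1.78–7.68). The other 12 were single bins. The one with the most EHMT+ tags among them, chr3R:12668701-12669000, had 16 tags in EHMTDD1 and 6 in EHMT+ (2.67 times, 0.991–8.32). Most of the 17 bins lay between 150 and 250 kb from the proximal border. In the Antennapedia complex the 3 bins below the limit were single: chr3R:2814001-2814300 (10 tags in EHMTDD1 and 4 in EHMT+), chr3R:2817001-2817300 (9 in EHMTDD1 and 1 in EHMT+) and chr3R:2583901-2584200 (6 in EHMTDD1 and 0 in EHMT+). The counts by midpoint of such bins are small. At chr3R:12660601-12660900 they went the other way, with 1 tag in EHMTDD1 and 2 in EHMT+. Each such bin shows a difference between these 2 libraries only.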

How the data were processed

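The 2 libraries were deposited as positions of single tags, with start and end per tag. Per the paper's methods, the authors sequenced 36-bp reads, aligned them allowing 1 mismatch, kept unique positions and lengthened every tag to 300 bp along its strand. The submitters' processing notes name the builds dm3 and BDGP5 (Release 5). Each file holds 7043913 tags, all 300 bp long, with no start and strand used more than once. The equal totals come from scaling the libraries to 1 size before deposit. The original depth was not used here, and which tags were dropped could change the ratio of single bins. Unique alignment leaves repeats without tags.

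Each tag was assigned to all 300-bp bins it overlapped. Bins began at position 1 of each of 6 chromosomes (chromosome 4 and 5 arms, the arms without the pericentric 1 Mb). Densities and totals used midpoints. Limits were the mean (0.17) plus and minus 2 SD (0.87) of the log2 ratio over these bins, with a pseudocount of 1. Intervals are exact Poisson for densities and exact conditional binomial for ratios of counts. Those for shares are Wilson intervals, for ratios of ratios they come from the 4 counts, and all are at 95%. The median's interval rests on bin ranks and takes the bins as independent. The scripts were tested on simulated data.

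Regions named in each complex were the 5 longest runs of LOMBs, the 3 longest runs below the lower limit, the 3 highest and lowest 10-kb windows in EHMT+ and the 3 highest and lowest log2 ratios. The windows on 2L and the 5-kb border steps were chosen after their values were seen. The complexes and all lists were chosen with earlier results of these data known. Tags at single Hox genes and sequences were not analysed here, because no Release 5 annotation or genome was used. Gene names and their order came from RefSeq in Release 6. Alternatives changed the pseudocount, the minimum number of tags, how tags are counted, bin size and grid, limits, flanks and the summary. Trimmed borders, scaling by 3R and shifted windows were added after seeing the data. Scripts ran in Python 3.11.15 with pandas 2.3.3, NumPy 2.4.6 and SciPy 1.17.1; figures were drawn with Matplotlib 3.10.9.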

Additional observations from a re-analysis of the deposited data

How the results depend on the processing

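No paired analysis was possible because there was 1 library of each genotype. The level of the bithorax complex relative to its flanks stayed under 0.7 in both libraries under every alternative run. In EHMTDD1 it was 0.643 from median tags per bin, 0.571 with 250-kb flanks, 0.546 with the proximal and 0.662 with the distal flank alone. In EHMT+ it was 0.521 with 250-kb flanks, 0.497 with the proximal and 0.582 with the distal flank alone, and 0.520 with 20 kb left out at both ends. For the Antennapedia complex, median tags per bin gave 0.815 in EHMTDD1 and 0.750 in EHMT+. The spread of bins in the bithorax complex relative to its flanks in EHMT+ was 1.03 with midpoints. The shift between genotypes in the bithorax complex was −0.21 with at least 20 tags per bin.

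Bins of 600 bp gave 26 LOMBs in the Antennapedia complex (4.47%) and 86 in its flanks (5.16%), and 8 in the bithorax complex (1.50%) and 72 in its flanks (4.32%). Limits of 3 SD, which are stricter, gave 32 (2.74%) in the Antennapedia complex and 83 (2.49%) in its flanks, so that the complex had the higher share. In the bithorax complex they gave 12 (1.13%), and in its flanks 62 (1.86%). The share over all euchromatic bins was not taken with 600-bp bins, limits of 3 SD or the minimum of 20 tags. With at least 20 tags the bithorax complex had 8. Flanks of 250 kb, which are shorter, held 92 LOMBs (5.53%) around the Antennapedia complex and 86 (5.16%) around the bithorax complex. With shifted windows, 0 of 350 lay below the bithorax complex in EHMTDD1. For the other changes the cause was not tested. The EHMT+ to EHMTDD1 ratio of totals was 0.866 in the bithorax complex and 0.976 in the Antennapedia complex with trimmed borders, and 0.899 in the bithorax complex and 0.995 in the Antennapedia complex after scaling by 3R. A bin of 15 to 28 tags limits what single bins can show.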
